A study of Mus musculus with 4 samples.

Results

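The genes described here are Hnrnpl and 9 other genes of the heterogeneous nuclear ribonucleoprotein (hnRNP) family, namely Hnrnpk, Hnrnpa1, Hnrnpa2b1, Hnrnpu, Hnrnpd, Hnrnpc, Hnrnpm, Hnrnpf and Ptbp1. Their probes were taken by gene name from the scanner output of 4 Agilent mouse expression arrays. They are 10 of the 36095 genes or names on the array and are read by 17 of its 55681 probes. All 17 probes were well above background on all 4 arrays, so no member was lost to a filter on dim signal. The cells were RAW264.7, an established mouse macrophage-like line, and total RNA of each culture was labelled with Cy3 and read on 1 array. The 4 cultures were cells with a vector against the long non-coding RNA Linc-AAM treated with AEPS, the same cells in DMEM medium, cells with a scramble vector treated with AEPS, and the scramble cells in DMEM. AEPS, a plant polysaccharide preparation, was given at 50 µg/mL for 4 h. Both lines carried an integrated pcDNA6.2-GW/EmGFP-miR vector that expresses an artificial microRNA, and both had been selected with blasticidin and kept as bulk cultures rather than as clones. Each group had 1 array and no replicate, so the number of arrays limits the precision of every value.

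The hnRNPs are abundant, mostly nuclear proteins that coat new transcripts and take part in splicing, polyadenylation, RNA export and mRNA decay. They bind short sequence patterns such as CA repeats, pyrimidine tracts, G runs or AU-rich stretches, and many of them repress the use of nearby exons. Several long non-coding RNAs of macrophages are known to act together with hnRNP partners.

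Across the arrays, 53.4% to 58.0% of spots were well above background, 0 spots were saturated, and the 75th percentile of the processed intensity lay between 439.1 and 587.7. AEPS had acted on both lines, since Il1b, Tnf and Isg15 rose by 11.78, 4.92 and 6.32 on the log2 scale over both lines (limma adjusted p = 0.00947, 0.0143 and 0.00605). Of 8 macrophage markers, 7 were well above background on all 4 arrays. So were 2 of 3 T cell markers, 1 of 3 B cell markers and 1 of 4 fibroblast markers. The epithelial markers Epcam, Krt8 and Cdh1 were above background on 0 arrays. The macrophage markers summed to relative levels of 465 and 494 under AEPS and 601 and 621 in DMEM (knockdown and scramble), most of it from Csf1r. By limma 1 of the 8 rose (Mrc1, well above background on 2 of the 4 arrays) and 0 fell. Fcgr1, not called (limma adjusted p = 0.225), differed under AEPS by -1.92 on the log2 scale in knockdown and by -0.11 in scramble. The T cell, fibroblast and epithelial markers each summed to 3.75 or less, and of these the fibroblast markers Col1a1 and Col1a2 rose, by 2.02 and 0.71 on the log2 scale (limma adjusted p = 0.015 and 0.0387). Col1a1 was well above background on 3 of the 4 arrays, and its difference in knockdown, bounded by the background, was 0.85. The fibroblast markers summed to 0.243 and 0.315 under AEPS and 0.117 and 0.152 in DMEM (knockdown and scramble). The part of these markers in the results below was not tested. The sources disagree on the lines: each column of the authors' value table ranked the probes like the scanner file of the other line in the same medium (Spearman rho across probes at least 0.99989) and less like its own (at most 0.96884). Lines are named below as the scanner files name them, and the table's names would exchange knockdown and scramble in every line difference. The level of Linc-AAM itself was not analysed here, so it gives no check of the labels.

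The Hnrnpl probe lies at chr7:29605608-29605667 on the plus strand in the mm9 coordinates of the array. Bases 31 to 60 of it are shown because another probe of the array, with no gene name in the design and placed at chr8:100400382-100400441, carries a near copy. Over an overlap of 52 bases the probes differ at 7 (A26C, G52A, T55C, C56T, T57G, C59T and A60T, counted from the 5′ end of the Hnrnpl probe), and capitals mark the 6 that fall within the stretch shown.
Hnrnpl probe: tcagcgagtcaaggaacaatcGgtTCTcCA
unnamed probe: tcagcgagtcaaggaacaatcAgtCTGcTT
The longest run shared without a difference is 25 bases. The brightest probes of Hnrnpk, Hnrnpc and Hnrnpf, which showed the largest differences under AEPS below, begin with the stretches given next.
Hnrnpk probe: tcattaccattacaggaacacaggaccaga
Hnrnpc probe: gtgttcattaattcatgattgccctgcgcc
Hnrnpf probe: ccttgacttaaagctttctttgtactgtga
They lie at chr13:58494558-58494617 (minus strand), chr14:52694562-52694621 (minus strand) and chr6:117875521-117875580 (plus strand) in mm9. The Hnrnpc probe shares a run of 20 bases with 1 probe of another design name, and the other 15 member probes share no run of 20 bases with any probe of another name. Exon or UTR positions were not looked up, since no annotation of that build was used here.

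Hnrnpl, whose product binds CA-rich RNA and mostly represses exons, was a little lower under AEPS in both lines. On the arrays labelled knockdown its relative level, the processed intensity divided by the array's 75th percentile, was 2.74 under AEPS and 2.97 in DMEM. On the arrays labelled scramble it was 2.40 under AEPS and 2.78 in DMEM. Both AEPS arrays thus lay below both DMEM arrays, although 2.74 and 2.78 differ by less than the spread between spots within an array, where a difference of 2 spots has an SD of 0.064 on the log2 scale. The differences were -0.12 and -0.21 on the log2 scale, in knockdown and scramble. Over both lines limma gave -0.16 ± 0.12 (SE, 4 arrays; 95% interval -0.49 to 0.16; limma adjusted p = 0.381), which does not pass the threshold of 0.05. The unnamed probe with the near copy had relative levels of 1.82 under AEPS and 1.79 in DMEM in knockdown, and 1.55 under AEPS and 1.78 in DMEM in scramble. Its differences were 0.02 and -0.20, so it followed the Hnrnpl probe in the scramble line only, and the part of shared hybridization in the Hnrnpl values was not tested.

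Ptbp1 (hnRNP I), a pyrimidine-tract binder that represses many exons, had relative levels of 29.1 under AEPS and 25.5 in DMEM in knockdown, and 27.5 under AEPS and 25.1 in DMEM in scramble. Both AEPS arrays lay above both DMEM arrays, and the limma effect was 0.16 ± 0.11 (SE, 4 arrays; limma adjusted p = 0.380). Hnrnpa1, whose product silences splice sites in opposition to SR proteins, measured 25.02 under AEPS and 21.24 in DMEM in knockdown, and 27.43 under AEPS and 24.49 in DMEM in scramble. Again the groups did not overlap, but the AEPS array of knockdown and the DMEM array of scramble were close together. Hnrnpa2b1, which encodes splicing regulators that also serve in mRNA transport, measured 51.2 under AEPS and 44.4 in DMEM in knockdown, and 54.1 under AEPS and 46.2 in DMEM in scramble. The limma effects of these genes were 0.20 ± 0.12 for Hnrnpa1 and 0.22 ± 0.11 for Hnrnpa2b1 (limma adjusted p = 0.297 and 0.263).

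Hnrnpc, which packages nascent transcripts and binds U runs, had relative levels of 110.5 under AEPS and 83.6 in DMEM in knockdown, and 118.3 under AEPS and 99.6 in DMEM in scramble. Its difference of 0.40 on the log2 scale in knockdown, 1.32-fold, was the largest in size among the 10 genes in any pair of arrays. In scramble the difference was 0.25, and over both lines limma gave 0.325 ± 0.120 (SE, 4 arrays; limma adjusted p = 0.158). The probe of another name that shares 20 bases with the Hnrnpc probe gave 0.43 in knockdown and 0.20 in scramble. The part of shared hybridization in the Hnrnpc values was not tested. Hnrnpf, a binder of G runs that regulates splicing, measured 110.9 under AEPS and 85.0 in DMEM in knockdown, and 105.5 under AEPS and 93.2 in DMEM in scramble. Both AEPS arrays lay above both DMEM arrays, with differences of 0.38 in knockdown and 0.18 in scramble. Hnrnpm, a splicing regulator known in mouse macrophages to restrain innate immune transcripts, measured 78.6 under AEPS and 68.7 in DMEM in knockdown, and 79.3 under AEPS and 69.2 in DMEM in scramble. The lines gave nearly the same difference for Hnrnpm, 0.20 in each, and limma gave 0.20 ± 0.11 (limma adjusted p = 0.299), against 0.28 ± 0.12 for Hnrnpf (limma adjusted p = 0.208).

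Hnrnpk, a KH-domain protein that binds C-rich RNA and partners with long non-coding RNAs, had relative levels of 24.5 under AEPS and 18.9 in DMEM in knockdown, and 25.6 under AEPS and 21.1 in DMEM in scramble. The AEPS arrays stood clear of the DMEM arrays, with differences of 0.37 and 0.28. Its limma effect, 0.326 ± 0.116, was level with that of Hnrnpc at the top of the 10 (SE, 4 arrays; 95% interval -0.001 to 0.654; limma adjusted p = 0.148). Hnrnpu, the scaffold attachment protein that ties RNA to chromatin, measured 19.6 under AEPS and 17.8 in DMEM in knockdown, and 20.7 under AEPS and 19.6 in DMEM in scramble. Its AEPS array in knockdown and its DMEM array in scramble had almost the same level (19.64 and 19.62), so the groups were separated only by less than the within-array spread. Hnrnpd (AUF1), which binds AU-rich elements and directs mRNA decay, including that of cytokine mRNAs, varied least. It measured 45.69 under AEPS and 42.32 in DMEM in knockdown, and 45.73 under AEPS and 45.77 in DMEM in scramble. Its AEPS and DMEM groups overlapped, and of the 10 genes its range over the 4 arrays, 0.11 on the log2 scale, was the smallest. The limma effects were 0.11 ± 0.11 for Hnrnpu and 0.06 ± 0.12 for Hnrnpd (limma adjusted p = 0.528 and 0.764).

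**Figure D1:**
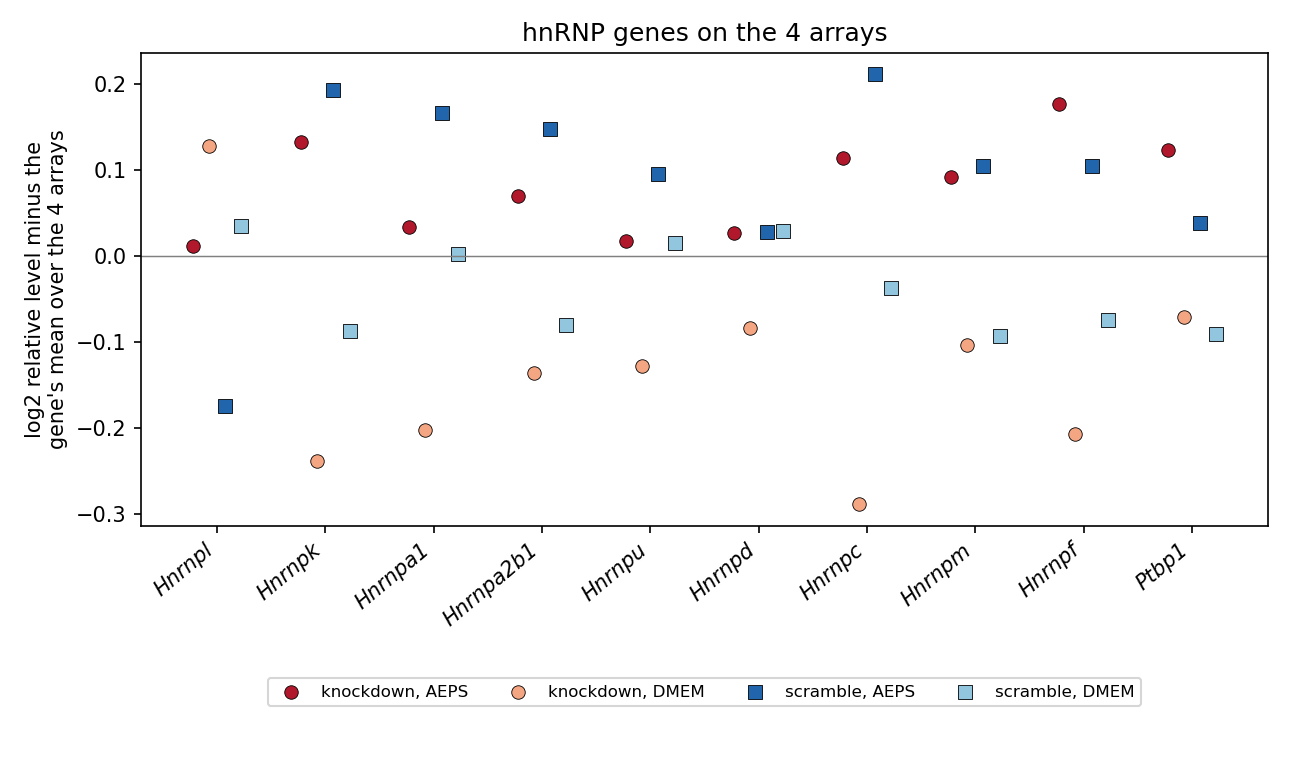
Log2 relative level of each hnRNP gene on each of the 4 arrays (y axis, log2 units, centred on the gene's mean), with circles for knockdown, squares for scramble, dark symbols for AEPS and pale symbols for DMEM. The dark symbols lie above the pale ones for 8 of 10 genes, below them for Hnrnpl and among them for Hnrnpd.

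Of the 10 genes, none passed a threshold for AEPS in the main analysis, and 1 alternative fit, with an intensity trend in limma, called 3 (Hnrnpk, Hnrnpc and Hnrnpf; limma adjusted p = 0.0335, 0.0102 and 0.0243) along with 30% of all genes. No member differed 2-fold between AEPS and DMEM in knockdown, where 8.12% of all genes measured did, and none in scramble, where 11.9% did. With 1 array a group these counts rest on size and have no test. By limma over both lines, 0 of the 10 were called at an adjusted p under 0.05, whereas 14.7% of the 22338 genes tested were. At an unadjusted p under 0.05 the count was also 0, both with line and treatment in the model and with treatment alone. Nothing in the labels names a repeated culture, so these p-values do not measure the spread between cultures. In the fit with line and treatment, the residual is the difference in AEPS response between the lines, with 1 degree of freedom. The prior from all genes tested adds 2.82, and the SE of each member rests on both. The smallest effect called anywhere in that fit was 0.59 in size on the log2 scale, above every member's effect. The SE of the members' effects lay between 0.113 and 0.125, so intervals such as that of Hnrnpk allow a difference of over 1.5-fold at their upper end, and the tests do not show that these genes stayed at 1 level.

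Counted by order alone, the AEPS and DMEM arrays did not overlap for 9 of the 10 genes, 8 with AEPS above and Hnrnpl with AEPS below. Among all 20336 genes measured on all 4 arrays, 60.8% did not overlap, 35.3% with AEPS above and 25.6% with AEPS below. The median limma effect of the members was 0.20, beside 0.07 for all genes tested. The members' ranges over the 4 arrays stood between percentiles 2.29 and 54.2 of all measured genes, Hnrnpd at the low end and Hnrnpc at the high end. The levels come from bulk RNA, in which fewer cells and less RNA per cell cannot be told apart.

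**Figure D2:**
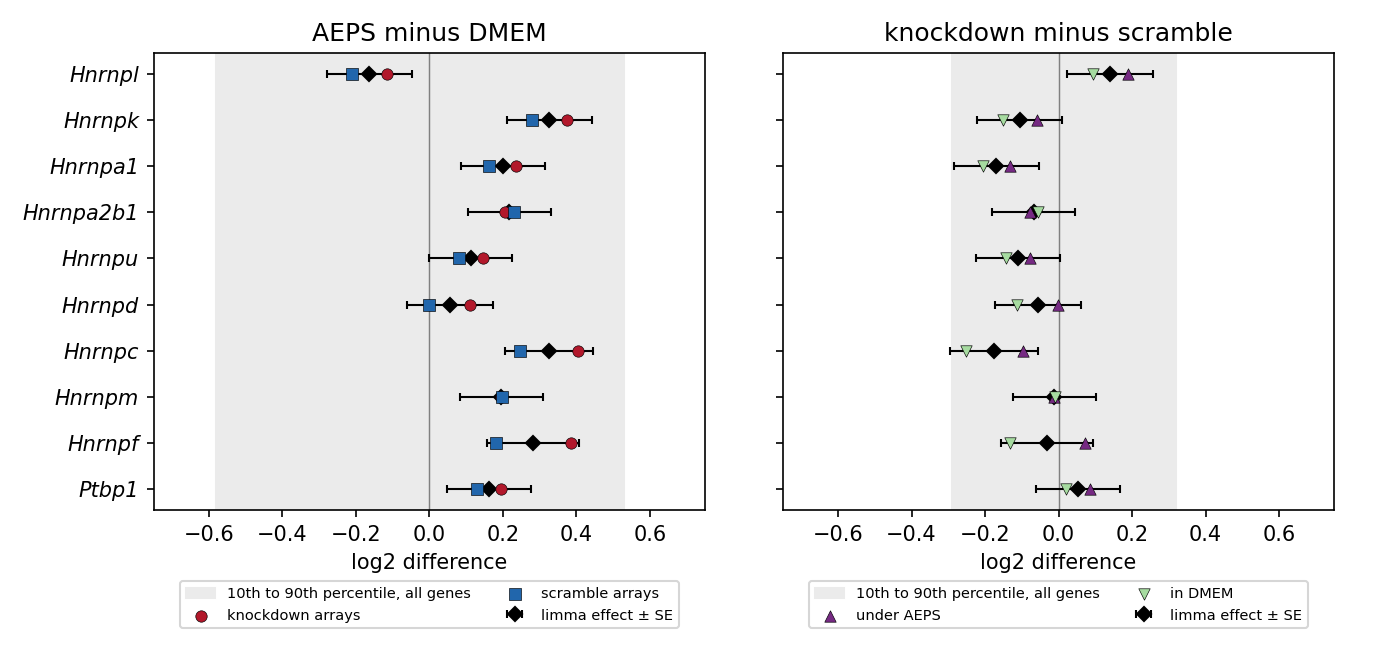
Log2 differences of the 10 genes for AEPS minus DMEM (left) and knockdown minus scramble (right). Diamonds with bars are limma effects ± SE over 4 arrays, small symbols the single pairs of arrays, and the grey band spans the 10th to 90th percentile of all genes. Every limma effect lies inside the band in both panels, and Hnrnpl is the only gene left of 0 for AEPS.

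The direction of the small AEPS differences depended on the scaling for most members. On the main scale 9 of 10 members were higher under AEPS in knockdown and 8 of 10 in scramble. After quantile normalization 4 of 10 were higher in knockdown and 2 of 10 in scramble, and the members' medians were -0.01 and -0.06 instead of 0.20 and 0.17. The medians of all genes measured on all 4 arrays were -0.04 and -0.05 instead of 0.05 and 0.06. Hnrnpk and Hnrnpl kept their sides: in each of 6 sets of values, both AEPS arrays of Hnrnpk lay above both DMEM arrays, and both AEPS arrays of Hnrnpl lay below. The limma effect of Hnrnpk ran from 0.17 to 0.34 over 11 settings and that of Hnrnpl from -0.21 to -0.16. Settings that change only the filter or the model leave these effects as they are. The ranges therefore rest on the scalings, the sources of values and the choice of probes. Hnrnpl has 1 probe, so the mean over probes repeats its main value. Relative to the mean of the other 9 members, Hnrnpl differed by -0.37 in knockdown and -0.38 in scramble on the main scale, and by -0.18 and -0.17 after quantile normalization. Hnrnpl was the lowest of the 10 for AEPS in both lines under all 6 sets of values.

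**Figure D3:**
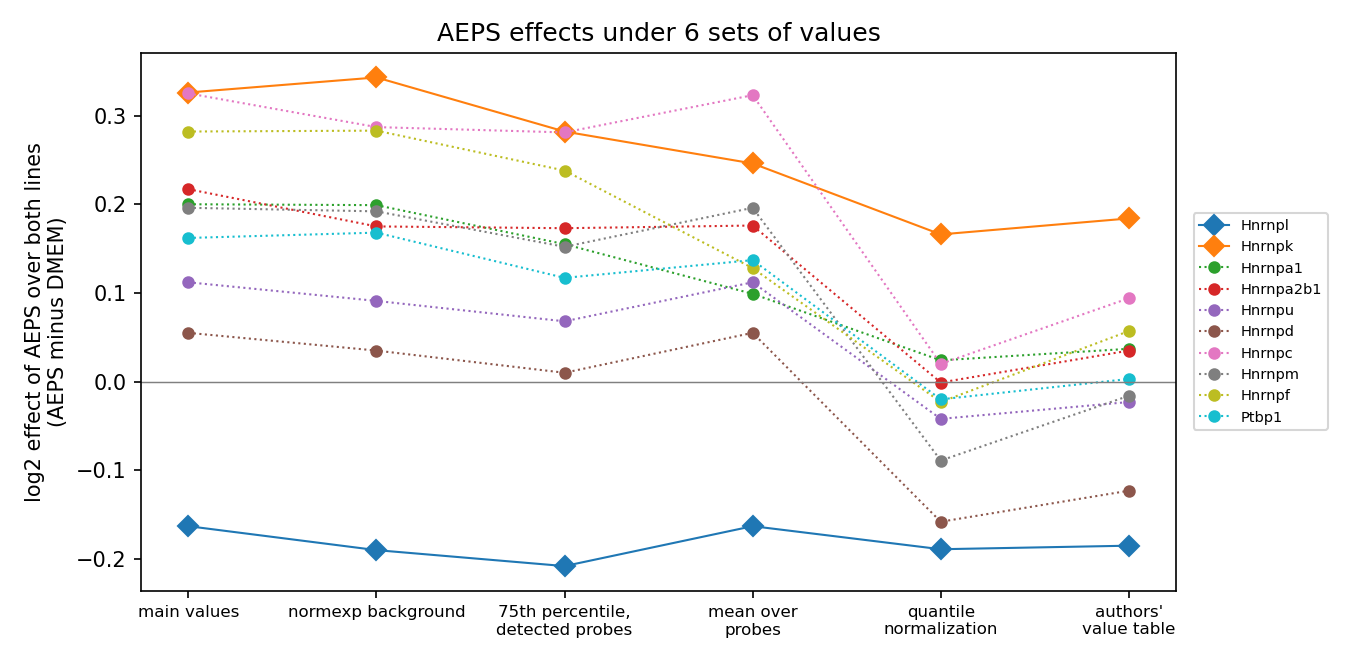
Log2 effect of AEPS over both lines (y axis) for each of the 10 genes under 6 sets of values (x axis). Lines only join the same gene, and Hnrnpk and Hnrnpl are drawn with diamonds. Hnrnpk stays above 0 and Hnrnpl below 0 throughout, while 6 of the others cross 0 after quantile normalization.

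The AEPS differences also varied between the probes of a gene, by little in some members. Of 6 members with several probes, the brightest probe had a higher AEPS difference than the dimmest in 6 of 6 in knockdown and 5 of 6 in scramble. The share among all genes with several probes was not counted. In knockdown the bright and dim probe gave 0.37 and 0.26 for Hnrnpk, 0.21 and 0.15 for Hnrnpa2b1, and 0.19 and 0.18 for Ptbp1. For Hnrnpc they gave 0.40 and 0.38. By limma effect the most distant pair belonged to Hnrnpf, 0.31 apart, whose bright probe gave 0.38 and 0.18 and whose dim probe at chr6:117873933-117873992 gave 0.06 and -0.11, in knockdown and scramble. For Hnrnpa1 the bright probe gave 0.24 and 0.16, and the dim probe at chr15:103072642-103072701 gave -0.13 and 0.13. The probes of Hnrnpc agreed closely, with limma effects 0.01 apart on the log2 scale. Over all genes the medians were not in order of level in either line: in scramble they ran from 0.14 in the dimmest bin through -0.05 in the 6th and 7th to 0.18 in the brightest. In the brightest of 10 bins of level, which holds Hnrnpa2b1, Hnrnpd, Hnrnpc, Hnrnpm and Hnrnpf, the median AEPS difference was 0.17 in knockdown and 0.18 in scramble, beside 0.05 and 0.14 in the dimmest. In the bin of Hnrnpl, the 7th of 10, the medians were 0.01 and -0.05. Set against the median of its own bin, Hnrnpl differed by -0.13 and -0.16, Hnrnpk by 0.26 and 0.22, Hnrnpc by 0.23 and 0.07, and Hnrnpm by 0.03 and 0.02. The part of probe brightness in the members' differences was not tested.

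**Figure D4:**
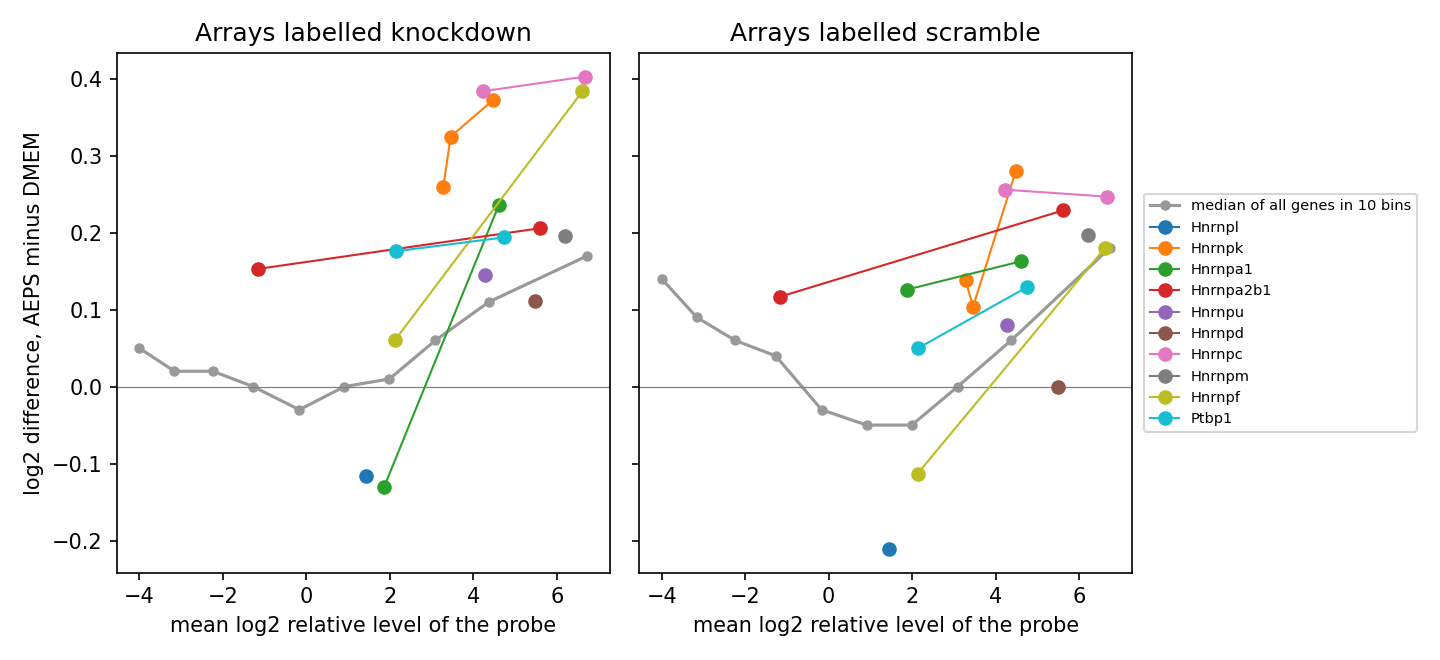
AEPS minus DMEM log2 difference (y axis) of each of the 17 member probes against its mean log2 relative level (x axis), on the arrays labelled knockdown (left) and scramble (right). Lines join probes of 1 gene, and the grey line gives the median of all genes in 10 bins of level. Brighter probes of a gene mostly lie higher than its dim probes, for some genes only slightly. The Hnrnpl probe lies below the grey line in both panels.

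Between the lines the members mostly differed less than between AEPS and DMEM. So did all genes measured on all 4 arrays, with a median size of 0.14 for line and 0.24 for AEPS on the log2 scale. In no member did the arrays labelled knockdown and scramble differ 2-fold in DMEM, where 3.87% of all genes did, or under AEPS, where 4.53% did. By limma 0 of 10 members were called for line, against 0.739% of the genes tested, and 0 had an unadjusted p under 0.05, with treatment in the model or with line alone. Hnrnpl had the largest positive effect, 0.14 ± 0.12 (knockdown minus scramble, SE, 4 arrays; limma adjusted p = 0.641), with differences of 0.19 under AEPS and 0.09 in DMEM. Hnrnpc had the lowest, -0.175 ± 0.12 (limma adjusted p = 0.579), with differences of -0.10 under AEPS and -0.25 in DMEM. The knockdown and scramble arrays did not overlap for 1 member, Hnrnpd, against 26.8% of all genes, and its gap was far inside the within-array spread. Over the 10 genes the median line effect was -0.06, beside -0.01 for all genes tested. In the authors' value table, with its own line names, the line effect had the opposite sign for 7 of the 10 members, was 0 for Hnrnpd and kept its sign for Hnrnpm and Hnrnpf, and the Hnrnpl effect was -0.17.

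The difference in AEPS response, knockdown minus scramble, had a median of 0.08 over the members on the log2 scale, beside 0.04 for all genes on all 4 arrays. It has 0 residual degrees of freedom and therefore no test. The members ran from -0.02 for Hnrnpa2b1 to 0.20 for Hnrnpf, and 8 of 10 were above 0. A difference of 4 spots has an SD of 0.090 within arrays, a size that only Hnrnpl, Hnrnpk, Hnrnpd, Hnrnpc and Hnrnpf exceeded. In the authors' value table, with its own line names, the median was -0.06.

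By root mean square distance between centred log2 values, the 5 genes nearest to Hnrnpl were Fbxl19, Zyg11b, Fstl3, Cibar1 and 1810030O07Rik, at 0.0026 to 0.0143. The genes compared were the 13187 with an official symbol that were measured on all 4 arrays. Of the other members the nearest was Hnrnpd at 0.15 and the farthest Hnrnpc at 0.29. These distances rest on 4 arrays that share each array's scaling, and they describe likeness only.

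In 6 lists of other genes of RNA processing, 2 genes rose and 4 fell under AEPS by limma. Among all genes tested 7.40% rose and 7.29% fell, with a median effect of 0.07. The lists were drawn up with earlier results of these data known and are given as counts. Of 23 tested genes of other hnRNP and related proteins, 0 rose and 1 fell under AEPS, with a median effect of 0.11. The gene that fell was Cirbp, the cold-inducible RNA-binding protein, by 0.81 on the log2 scale (limma adjusted p = 0.0386, and 0.00167 to 0.172 over 11 settings). Pcbp4, a poly(C)-binding relative of Hnrnpk, had relative levels of 0.288 in knockdown and 0.156 in scramble under AEPS, and 0.380 in knockdown and 0.151 in scramble in DMEM. The lines differed at least 2-fold in DMEM and less under AEPS, and over both media its line effect of 1.11 was not called by limma (adjusted p = 0.113). Of 18 tested SR proteins and their kinases, 0 rose and 1 fell, the SR kinase gene Srpk2, by 0.85 (limma adjusted p = 0.037, and 0.0014 to 0.165 over 11 settings). None of 22 core spliceosome genes and none of 7 genes for nuclear import and arginine methylation of hnRNPs was called by limma in either direction, with medians of 0.08 and 0.13.

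Among 10 factors that act through AU-rich elements or stem-loops, 2 rose and 0 fell, beside 7.40% and 7.29% of all genes tested. Zc3h12a (Regnase-1), an endonuclease that cuts cytokine mRNAs, had relative levels of 4.92 under AEPS and 0.544 in DMEM in knockdown, and 6.83 under AEPS and 0.343 in DMEM in scramble. Zfp36 (tristetraprolin), which binds AU-rich mRNAs and promotes their decay, measured 1.74 under AEPS and 0.353 in DMEM in knockdown, and 2.83 under AEPS and 0.387 in DMEM in scramble. They rose by 3.75 and 2.58 on the log2 scale (limma adjusted p = 0.0134 and 0.0108), calls that ended when dim genes were not filtered out (adjusted p = 0.0577 and 0.0547). Zfp36l2, a relative of Zfp36, and Rc3h1 (Roquin-1), which binds stem-loops, differed at least 2-fold on the scramble arrays, by -1.90 and 1.04, where the knockdown arrays gave -0.72 and 0.56. In the main fit they were not called by limma (adjusted p = 0.0773 and 0.058). Over 11 settings limma called Zfp36l2 in 3 (adjusted p from 0.00259 to 0.212) and Rc3h1 in 4 (from 0.00322 to 0.209). Of 14 nuclear RNA-binding proteins and architectural RNAs, 0 rose and 2 fell. They were the long non-coding RNAs Neat1 of paraspeckles, by 0.74 (limma adjusted p = 0.0342, and 0.000462 to 0.175 over 11 settings), and Malat1 of nuclear speckles, by 0.90 (limma adjusted p = 0.0488, and 0.002 to 0.335 over 11 settings). Malat1 was called in 6 of these settings and Neat1, Cirbp and Srpk2 in 9.

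**Figure D5:**
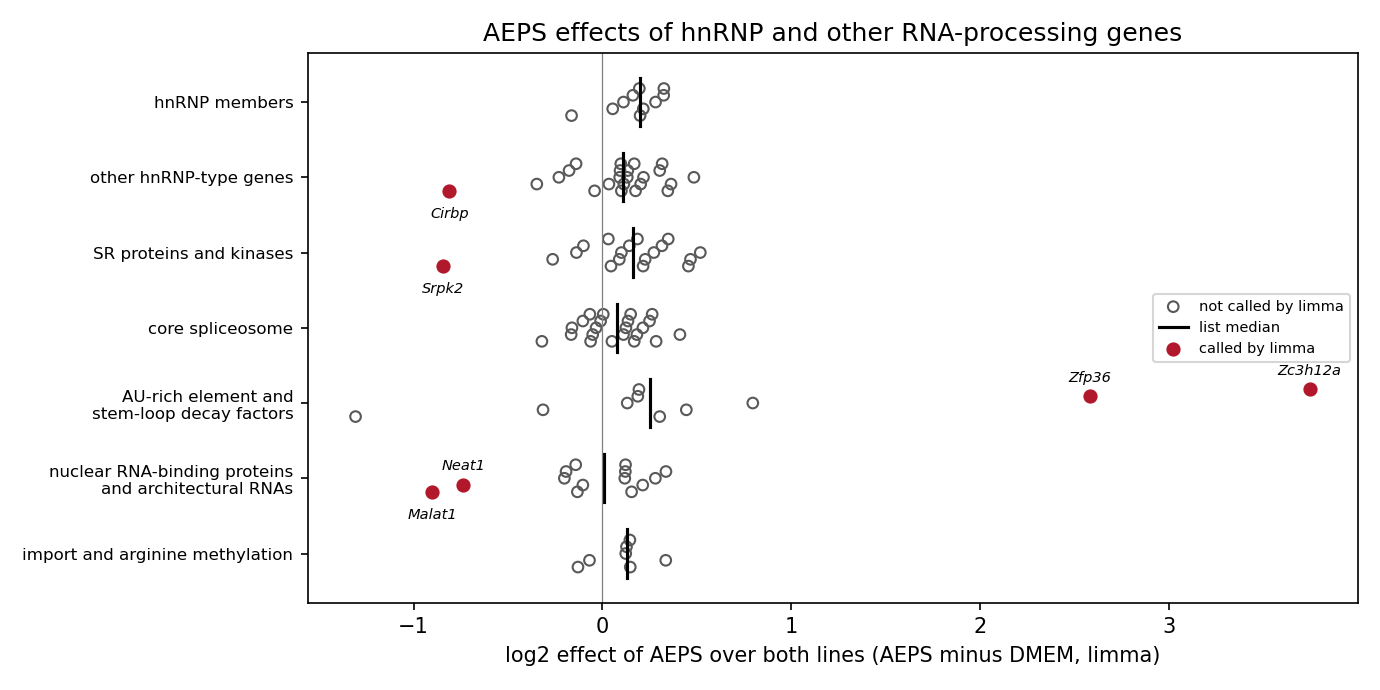
Log2 effect of AEPS over both lines by limma (x axis) for every tested gene of the 10 hnRNP members and 6 lists of RNA-processing genes (rows). Filled symbols passed an adjusted p of 0.05, open symbols did not, and black bars are list medians. The hnRNP members are all open and lie between -0.16 and 0.33, while Zc3h12a and Zfp36 stand far to the right.

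RefSeq (GRCm38.p6) gave 14 start sites for the 10 genes, and the 250 bases before each were read for motifs, since sequence played no part in choosing the genes. The windows were rich in CpG, with a median of 20.5 CG pairs and 59.6% G and C, beside 6 and 52.4% for all 32851 windows of that length. CCAAT, on either strand, stood in 9 of 14 windows and in 7 of 10 genes, beside 33.8% of all windows and 37.5% of all genes. The windows of Hnrnpl, Hnrnpa1 and Hnrnpc held 4 matches each, and they are shown with that of Hnrnpu, which held none. Capitals mark CCAAT or its reverse complement.
Hnrnpl, chr7:28810640-28810889 (plus strand): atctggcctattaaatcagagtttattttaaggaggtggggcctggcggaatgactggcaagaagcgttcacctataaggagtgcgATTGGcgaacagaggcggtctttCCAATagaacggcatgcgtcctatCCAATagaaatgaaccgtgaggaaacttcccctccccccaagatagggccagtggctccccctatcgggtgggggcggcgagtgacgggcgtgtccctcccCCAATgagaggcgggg
Hnrnpa1, chr15:103240147-103240396 (plus strand): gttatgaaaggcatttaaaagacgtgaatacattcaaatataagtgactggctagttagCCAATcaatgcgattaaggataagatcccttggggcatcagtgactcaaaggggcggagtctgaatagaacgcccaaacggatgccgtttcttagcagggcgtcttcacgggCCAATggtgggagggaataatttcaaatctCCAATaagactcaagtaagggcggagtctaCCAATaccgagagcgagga
Hnrnpc, chr14:52104022-52104271 (minus strand): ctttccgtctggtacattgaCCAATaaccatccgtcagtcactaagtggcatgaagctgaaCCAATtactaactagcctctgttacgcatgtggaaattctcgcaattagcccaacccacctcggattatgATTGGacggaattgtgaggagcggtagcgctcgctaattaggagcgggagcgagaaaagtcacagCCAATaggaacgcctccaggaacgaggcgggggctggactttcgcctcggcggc
Hnrnpu, chr1:178337816-178338065 (minus strand): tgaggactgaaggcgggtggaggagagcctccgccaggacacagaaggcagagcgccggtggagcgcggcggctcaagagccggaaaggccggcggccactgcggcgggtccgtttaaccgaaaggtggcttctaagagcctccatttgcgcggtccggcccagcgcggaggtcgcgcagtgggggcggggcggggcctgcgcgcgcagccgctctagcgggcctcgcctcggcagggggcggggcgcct
The GC box GGGCGG stood in 7 of 14 windows (32.7% of all), the ETS core CCGGAAG in 3 (6.91%) and the E-box CACGTG in 3 (6.02%). Some genes, Hnrnpf among them, have several windows. By gene, the GC box stood in 5 of 10 (35.4% of all genes), the ETS core in 2 (7.83%) and the E-box in 3 (6.86%). The kappaB pattern GGANTTTCC stood in 0 of 14 windows (1.07% of all), and the interferon response pattern AAANNGAAA in 1 (9.37%), that of Hnrnpm, which also held the only TATAAA (12.4%). Both strands were read for every motif, and 1 overlap between matches of different motifs was counted. Hnrnpl and Hnrnpc, with 4 CCAAT matches each, lay on opposite sides of 0 for AEPS, and a match of letters says nothing about binding.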

How the data were processed

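The 10 genes and the lists beside them were chosen with earlier results of these data known. Per the file headers, the deposited scanner output gives each spot as a linear intensity, made with Agilent Feature Extraction 10.7.1.1, background-subtracted and detrended within each array and not scaled between arrays. They also hold mean and background intensity and marks for dim, saturated and outlier spots. The deposited value table holds log2 values of the authors, whose scale was read from its match with the scanner values. How they were made is not stated in the labels or headers. Its 4 columns share 1 distribution within 0.0023, with a median of 4.69 each. Its direction between lines is unknown.

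Each array's 75th percentile was subtracted from its processed intensity after both were put on the log2 scale. Outlier spots were left out and spots of a probe averaged. A gene took its brightest probe, named through RefSeq by accession, symbol or synonym. The 26005 probes without such a match kept the name of the array design and count among all genes. All 4 arrays lay on 1 slide with 1 scan day. limma 3.58.1 in R 4.3.3 fitted line plus treatment to the 22338 genes detected above background on at least 2 arrays (Benjamini-Hochberg, threshold 0.05). It leaves 1 residual degree of freedom, and the prior added 2.82. Single pairs of arrays were compared by size, at 2-fold. Named genes are the 10 members, up to 4 called genes per list, the 5 genes nearest to Hnrnpl, and Il1b, Tnf and Isg15, with cell type markers from a separate list. Hnrnpll, Ptbp2 and Ptbp3 were named after their values were seen. Alternatives were quantile normalization, the percentile over detected probes, normexp, the value table, other filters, probe choices and models. The counts without overlap, and the comparisons with other members and by brightness, were chosen after seeing the data.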

Additional observations from a re-analysis of the deposited data

Results flagged for a closer look

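Hnrnpd was flagged for the sign of its AEPS difference, which was 0.11 on the arrays labelled knockdown and -0.001, practically none, on those labelled scramble. The signs did not differ after quantile normalization (-0.111 in knockdown and -0.205 in scramble). Nor did they in the value table with its own line names (-0.182 in knockdown and -0.065 in scramble). On the main scale the gap between the lines was 0.11 in log2 units and was not tested. Hnrnpf had line differences of opposite sign, 0.07 under AEPS and -0.13 in DMEM, a gap of 0.20 that was likewise not tested. Within arrays, a difference of 4 spots has an SD of 0.090.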

How the results depend on the processing

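The count of members called stayed at 0 under every alternative for line and for pairs of arrays, the 1.5-fold threshold included, where 9.95% to 24.9% of all genes were called. For AEPS it was 0 in all fits but that with an intensity trend, which called 3, Hnrnpk, Hnrnpc and Hnrnpf (limma adjusted p = 0.0335, 0.0102 and 0.0243, with highest values of 0.468, 0.918 and 0.912 over 11 settings) together with 30% of all genes. The median difference in response was -0.061 in the value table. Members with no overlap for AEPS numbered 9 in the main values, 5 after quantile normalization (25.5% of all genes with AEPS above and 33.9% below) and 4 in the value table (58.9% of all genes in either direction). For line they numbered 1, against 3 with quantile normalization (27.7% of all genes), 0 with the percentile over detected probes (29.1%), 2 with normexp (34.7%), 5 in the value table (28%) and 2 with the mean over probes (26.7%). Signs turned, for effects that were not called, as follows. For AEPS with quantile normalization, Hnrnpa2b1 gave -0.001, Hnrnpu -0.042, Hnrnpd -0.158, Hnrnpm -0.089, Hnrnpf -0.023 and Ptbp1 -0.020, and in the value table Hnrnpu gave -0.023, Hnrnpd -0.123 and Hnrnpm -0.016. For line with quantile normalization, Hnrnpa2b1 gave 0.001, Hnrnpd 0.012, Hnrnpm 0.057 and Hnrnpf 0.017, and with the percentile over detected probes Hnrnpd gave 0.003, Hnrnpm 0.048 and Hnrnpf 0.029. In the value table, which names the lines the other way round, the line effects were -0.170 for Hnrnpl, 0.029 for Hnrnpk, 0.083 for Hnrnpa1, 0.021 for Hnrnpa2b1, 0.032 for Hnrnpu, 0 for Hnrnpd, 0.130 for Hnrnpc and -0.141 for Ptbp1. With the mean over probes Hnrnpa2b1 gave 0.005. The cause was not tested. Counts over all genes moved more: limma called 3282 for AEPS and 165 for line, against 303 and 0 with no filter, 4497 and 337 with genes on all 4 arrays, 6694 and 1287 with the trend and 5100 and 741 with normexp. Treatment alone called 1318, line alone 0, and the percentile over detected probes 72 for line. The fit with line and treatment compares AEPS with DMEM within each line. No further pairing was possible because the groups share only replicate number 1, and leaving out an array leaves 0 residual degrees of freedom.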

Other observations

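Hnrnpll, the closest relative of Hnrnpl, was looked at after its values were seen. Its AEPS difference was -0.09 in knockdown and -0.18 in scramble on the log2 scale, beside -0.12 and -0.21 for Hnrnpl. Both genes were lower under AEPS in both lines with each of 5 scalings or sources of values, and after quantile normalization the differences of Hnrnpll were -0.27 and -0.33. Hnrnpll was not called by limma (adjusted p = 0.447). Ptbp2 and Ptbp3, relatives of Ptbp1, were higher under AEPS in both lines with each of the 5, by 0.15 and 0.11 for Ptbp2 and by 0.37 and 0.24 for Ptbp3 on the main scale, whereas Ptbp1 was not with quantile normalization or the value table. Neither was called by limma (adjusted p = 0.462 for Ptbp2 and 0.170 for Ptbp3).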
